A study of Mus musculus with 6 samples.

Results

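The mitochondrial respiratory chain and ATP synthase are built in large part from proteins encoded in the nucleus, and their genes were followed here in the mouse cortex through 28 days after stroke. The members were chosen by name. They are the nuclear protein-coding genes whose GENCODE symbol begins with Nduf, Uqcr, Sdha to Sdhd, Cox4 to Cox8 or Atp5, which gave 98 gene identifiers, and 15441 genes of any kind had a value in the series. Of the 98, 84 encode subunits of the complexes (36 of complex I, 4 of complex II, 8 of complex III, 19 of complex IV and 17 of complex V) and 14 are assembly or other factors that share the prefixes, Sdhaf1 to Sdhaf4 among them.

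Stroke was made by photothrombosis, in which light shone through the skull onto a dye in the blood (Rose Bengal) closes the vessels of the illuminated cortex. The animals were male C57/BL6J mice of 6 to 8 weeks with no genetic change, and the whole cortex of the injured side was taken at day 1, day 3, day 7, day 14 or day 28. The control was the same cortex of sham-operated mice at day 7 after the operation, so no sham sample matched the other days. RNA of 3 mice was pooled into 1 library in each of the 6 groups. No spread between animals can therefore be had, no test was possible, and every difference given is one between single pooled libraries. Lesion, surrounding cortex and invading cells were in the same sample, and in such bulk RNA fewer cells of a type and less RNA per cell cannot be told apart.

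Electrons from NADH enter the chain at complex I, and those from succinate enter at complex II, which is also an enzyme of the tricarboxylic acid cycle. They pass through complex III and cytochrome c to complex IV, which reduces oxygen. The protons pumped on the way drive complex V, the ATP synthase. Neurons depend on this chain for most of their ATP, and the chain stops when blood flow and oxygen fail. Many of its subunits are very small proteins from short transcripts, and many of the genes have processed pseudogenes elsewhere in the genome with which short reads can be shared.

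Several nuclear genes of the chain are known targets of the transcription factors NRF1 and GABP, an ETS family protein, and these letters were looked for in the promoters, from 250 bases before to 50 bases after each RefSeq start site (build GRCm38.p6). The letters GCGCANGCG, the core of the NRF1 motif, stood on either strand in 20 of the 66 subunit genes with a promoter in the table (30.3%), beside 1657 of 16522 protein-coding genes. The letters CCGGAAG, an ETS core, stood in 16 of the 66 (24.2%), beside 13.4%, and a gene was counted once for each motif whatever its number of matches and start sites. A match is a description of the sequence and not a bound site. The stretches below were printed to show what such matches look like in a gene of complexes I, II, IV and V for the NRF1 letters, and in a gene of complex III and in Atp5e, whose level differed most between libraries, for the ETS letters. The matched letters are in capitals, all on the strand of the gene (minus in each case), with a reverse-complement match shown as it reads on that strand.
Ndufs5, chr4:123718256-123718304: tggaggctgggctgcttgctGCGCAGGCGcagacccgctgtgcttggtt
Sdha, chr13:74350267-74350315: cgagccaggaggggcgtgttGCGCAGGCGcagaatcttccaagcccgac
Cox6a1, chr5:115349092-115349140: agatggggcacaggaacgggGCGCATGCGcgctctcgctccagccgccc
Atp5h, chr11:115420032-115420080: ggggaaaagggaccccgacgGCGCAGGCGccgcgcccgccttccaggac
Uqcr11, chr10:80406861-80406907: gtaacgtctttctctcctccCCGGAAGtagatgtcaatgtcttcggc
Atp5e, chr2:174464177-174464223: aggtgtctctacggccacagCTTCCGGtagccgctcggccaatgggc
The 19 listed subunits with the NRF1 letters had a median log2 ratio to control of 0.16 at day 1 and 0.48 at day 14. The 41 listed subunits with a promoter but without these letters had 0.22 and 0.36 on the same days. Neither group was the higher one on both days.

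Expression was given as FPKM, a count of fragments scaled to transcript length and to the size of the library, for each transcript start, transcript end and splicing event. Per gene, the starts were summed, the ends were summed, and the larger sum, or a single event that exceeded both, was taken as the value. The value can miss part of a gene's RNA, and it can also hold events outside the annotated span or reads shared with copies of the gene. Where values follow a gene's name after "then", or a median is said to run over the 5 days, they are those of days 1, 3, 7, 14 and 28 in that order. A gene without an entry in a library is called not listed, and this was not read as absence of RNA. Of the 98 members, 88 were listed in some library and 87 in all 6, and Sdhaf3 was listed in every library but day 28. The 10 members listed in none were Atp5g2, Cox4i1, Cox7b2, Cox8a, Cox8b, Cox8c, Ndufs8, Sdhaf1, Uqcrfs1 and a second identifier that carries the symbol Atp5o. Cox4i1, Cox8a and Uqcrfs1 encode constitutive subunits of complexes IV and III that respiring cells need, so their absence from the lists says nothing of their level. The span of Ndufs8 was covered by events entered under the neighbouring gene Aldh3b1, at 69.0 FPKM in control, then 75.4, 16.6, 67.4, 95.7 and 66.0. These values cannot be assigned to either gene.

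The listed subunits were abundant transcripts. The median subunit had 77.6 FPKM in the control, and 5 genes passed 230 FPKM there: Atp5b with 506, Cox6c with 354, Ndufa4 with 306, Atp5a1 with 269 and Cox6a1 with 231. At the other end stood Cox4i2 with 1.27, Cox6b2 with 1.32 and Ndufa4l2 with 1.41, isoforms found mainly in lung, testis and hypoxic or perivascular cells. The 75 listed subunits held 3.01% of the summed FPKM of all genes in the control, then 3.25%, 2.80%, 2.79%, 3.36% and 2.86%. Day 14 was thus the highest library and day 7 the lowest, and the control lay between them. Complex I held 0.995% in the control and 1.16% at day 14, complex V 0.947% and 1.08%, complex IV 0.766% and 0.804%, complex III 0.197% and 0.228%, while complex II held 0.103% and at most 0.112% in any library.

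**Figure D1:**
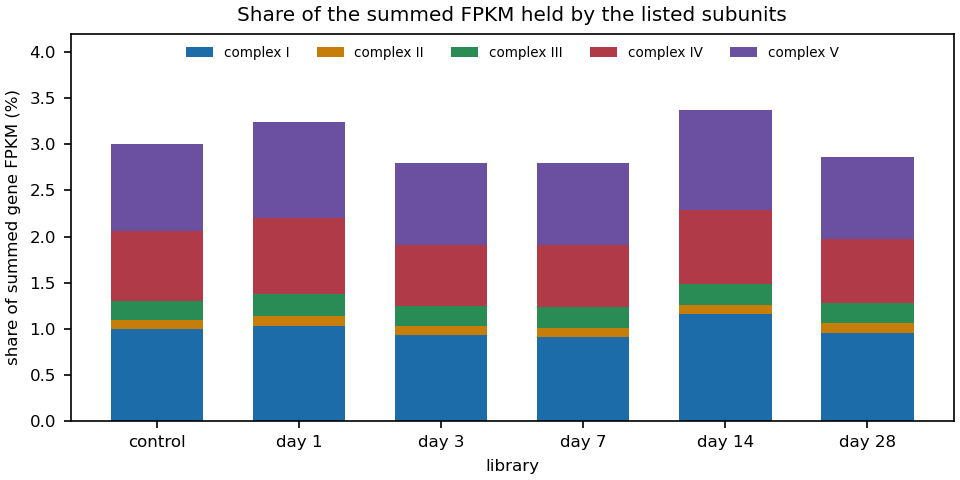
Share of the summed gene FPKM (y axis, percent) held by the 75 listed subunits in each of the 6 libraries (x axis), stacked by complex. The stack reaches 3.36% at day 14 and 2.79% at day 7, and complexes I, IV and V make up most of it in every library.

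Differences from control were taken as log2 ratios after adding 0.1 to each FPKM, for genes listed in both libraries with at least 1 FPKM in one of them. The median subunit was 0.19 above control at day 1 on this log2 scale (interquartile range 0.10 to 0.27), with 59 of 75 above 0. It was -0.10 at day 3, with 53 of 75 below 0, and -0.08 at day 7, with 55 below. At day 14 the median was 0.37 (0.22 to 0.52), with 68 of 75 above 0, and at day 28 it was 0.00, with 36 above and 39 below. The subunits thus lay slightly above control on days 1 and 14, slightly below on days 3 and 7, and around it on day 28. All genes compared had medians of 0.01, 0.03, 0.03, 0.10 and 0.03 at days 1, 3, 7, 14 and 28. The 2570 protein-coding genes with at least 20 FPKM in the control, which are closer to the subunits in level, had a median of 0.04 at day 1, and the same class had -0.10, -0.09, 0.07 and -0.02 on the later days. At days 3 and 7 the median of the subunits was thus close to that of abundant genes, which were not matched to them in length.

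Few members passed a log2 ratio of 1 in size, that is, a doubling or a halving. At day 1, 2 of 88 were higher (Atp5e and Ndufaf5), where 4.13% of all genes compared were higher, and 1 was lower (Ndufa13), where 3.53% of all genes were lower. At day 3, Atp5e and Cox6b2 were higher, beside 7.15% of all genes, and Uqcrq and Ndufb5 were lower, beside 2.10%. At day 7, Atp5e was higher, beside 7.08%, and Cox5b was lower, beside 1.77%. At day 14, Atp5e and Atp5j were higher, beside 7.69%, and 0 of 88 were lower, beside 4.66%. At day 28, 1 of 87 was higher (Ndufaf5), beside 3.00%, and 4 were lower (Atp5j, Ndufa13, Ndufa4l2 and Uqcrq), beside 2.11%. The counts of higher members were under the share of all genes on every day, while those of lower members at days 3 and 28 were not, and the share among genes with at least 20 FPKM in the control was itself lower, at 0.739% higher on day 1 and 1.99% on day 14. Over the 6 libraries the highest value of a member was 1.56 times its lowest in the median of the 87 members listed in all of them, beside 1.65 for protein-coding genes, and the ratio reached 2 for 18.4% of members and 31.2% of protein-coding genes. These protein-coding genes were not matched to the members in level, so a steadier course of the members cannot be read from this.

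**Figure D2:**
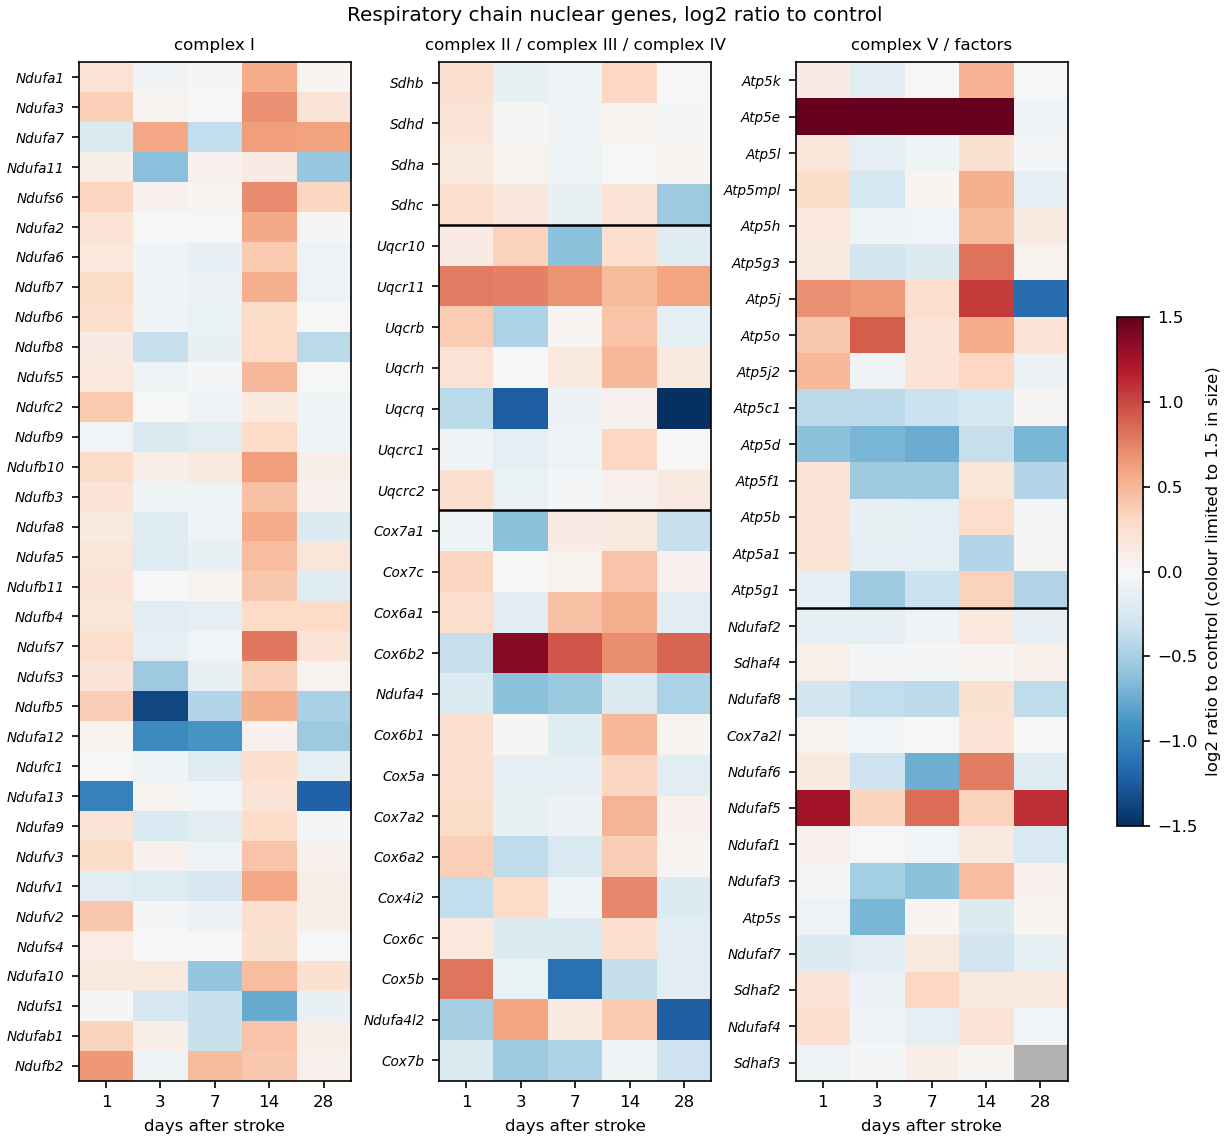
Log2 ratio to control (colour, limited to 1.5 in size) of 87 of the 88 listed members at days 1 to 28 (x axis), one row per gene, ordered within each complex from the shortest principal transcript at the top; grey marks a gene not listed. Most rows are pale red at day 1 and red at day 14, and Atp5e is red from day 1 to day 14.

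The subunits differ from most genes in the length of their transcripts. By the principal transcript of the GENCODE annotation, the median subunit measured 764 nt and 53 of 84 measured at most 1000 nt, whereas the median protein-coding gene with a value measured 3019 nt and 5.99% measured at most 1000 nt. The medians were 618 nt for complex IV, 809 nt for complex V, 939.5 nt for complex I, 955 nt for complex III and 2066 nt for complex II. The day 14 library, and to a lesser degree the day 1 library, showed a trend with length over protein-coding genes. Across protein-coding genes, Spearman's rho between the log2 ratio and transcript length was -0.426 at day 14 and -0.268 at day 1, and 0.00802, -0.0878 and -0.0318 at days 3, 7 and 28. Among the 75 listed subunits rho was -0.148, -0.129, -0.362, -0.438 and -0.0599 at days 1, 3, 7, 14 and 28. These are descriptions across genes of 1 library pair each, and genes are not replicates.

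At day 14 the subunits showed the trend as well, and at day 1 they showed little of it. At day 14 the subunits of at most 700 nt had a median log2 ratio of 0.49, beside 0.50 for protein-coding genes of that length, and those of 1000 to 2000 nt had 0.23, beside 0.33. At day 1 the same classes had 0.23 beside 0.21 and 0.17 beside 0.13. The protein-coding classes include the subunits, such as 30 of the 193 genes of at most 700 nt at day 14. The medians were close in the shortest class on both days, and at day 14 they were further apart at 1000 to 2000 nt. The 6 subunits of 2000 to 4000 nt had 0.18 at day 1, beside 0.04 for protein-coding genes of that length. At days 3 and 7 the subunits of at most 700 nt had -0.07 and -0.01, beside 0.03 and 0.07. Those of 1000 to 2000 nt had -0.13 and -0.11 on these days, beside 0.01 and 0.07, and those of 2000 to 4000 nt had 0.08 and -0.24, beside 0.02 and 0.03. After the median trend over 20 bins of principal transcript length was taken out, the median subunit was at 0.04 on day 1 and 0.00 on day 14. On days 3 and 7 the corrected medians were -0.12 and -0.15, and the share of each difference that belongs to the tissue and to the libraries cannot be told apart with 1 library a group. For subunits of at most 1000 nt, the difference from control at days 1 and 14 was thus close to that of all short protein-coding transcripts, the subunits among them. Its cause was not tested.

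**Figure D3:**
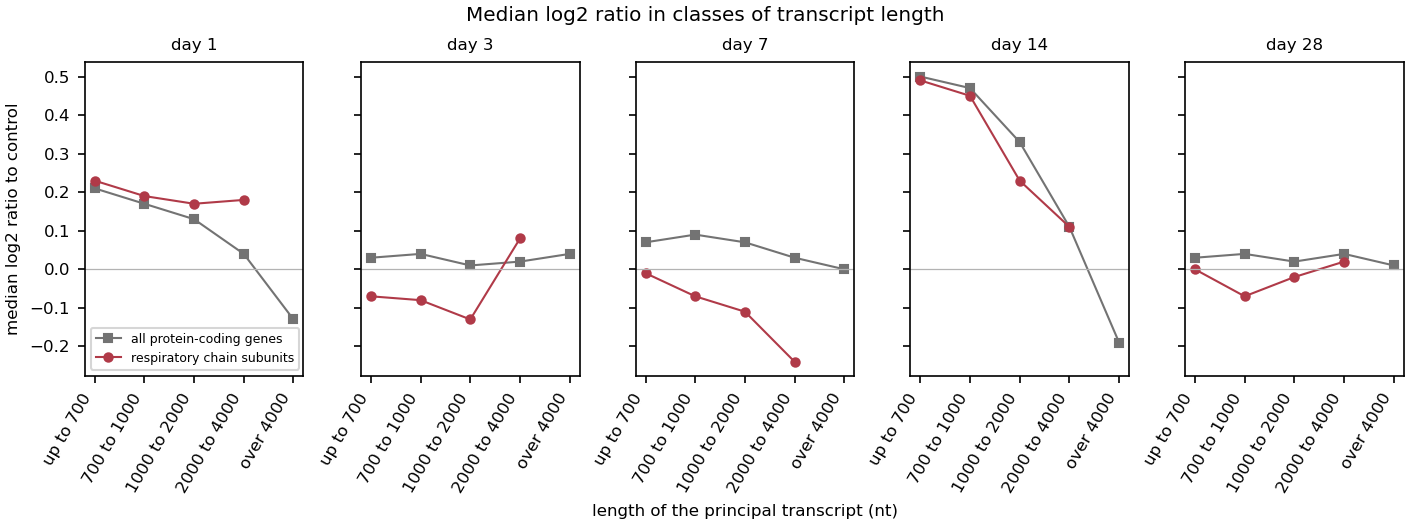
Median log2 ratio to control (y axis) of protein-coding genes (grey squares) and of respiratory chain subunits (red circles) in classes of principal transcript length (x axis, nt), one panel per day. A point that rests on under 5 genes is not drawn, which leaves out the subunits over 4000 nt. At day 14 both lines fall with length, from 0.50 and 0.49 in the shortest class to 0.11 at 2000 to 4000 nt. The line of protein-coding genes goes on to -0.19 over 4000 nt.

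Complex I, the NADH dehydrogenase, had 35 of its 36 nuclear subunits listed. Their median log2 ratio was 0.19, -0.07, -0.09, 0.41 and 0.02 over the 5 days. At day 14 all 29 accessory subunits were above control, with a median of 0.43, and 5 of 6 listed core subunits were. By summed ends 26 of 27 accessory and 3 of 5 core subunits were above control, and by summed starts 28 of 28 and 4 of 6. Core subunits carry the flavin and iron-sulphur clusters that pass the electrons on, and accessory subunits surround them. Ndufs1, the largest core subunit, was the exception, at 47.6 FPKM in control, then 46.5, 40.0, 37.8, 28.0 and 44.0. Its log2 ratio at day 14 was -0.76, the lowest of the complex. Its principal transcript of 2661 nt is long for the complex. Those of Ndufab1 (3479 nt) and Ndufb2 (4371 nt) are longer, and these genes had 0.43 and 0.41 at day 14. Ndufs7, which carries the last iron-sulphur cluster before ubiquinone, had 60.6 FPKM in control, 72.8, 54.9, 59.1 and 105 at days 1, 3, 7 and 14, and 69.6 at day 28. Its log2 ratio of 0.79 at day 14 was the highest of the complex, followed by 0.71 for Ndufs6. Ndufs3, Ndufv1 and Ndufv2, also core subunits, had no log2 ratio past 0.6 in size. Ndufs3 ran from 14.2 at day 3 to 26.7 at day 14, with 20.8 in the control. Ndufv1, the flavoprotein that takes electrons from NADH, ran from 50.1 at day 7 to 88.4 at day 14 (57.8 by its ends, beside 58.3 in control), and its partner Ndufv2 from 61.4 at day 7 to 86.5 at day 1. Each of these 3 had its lowest value at day 3 or day 7.

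Ndufa13, an accessory subunit also known as GRIM-19, fell into 2 sets of libraries. It had 164 FPKM in control and 168, 159 and 187 on days 3, 7 and 14, against 81.2 on day 1 and 70.5 on day 28. The log2 ratios were -1.01 at day 1 and -1.21 at day 28. The 2 low libraries were also the only ones in which a transcript start was listed for the gene, at 18.6 and 19.1 FPKM, and in the other 4 only a transcript end was. Ndufb5 had 66.0 FPKM in control, then 85.2, 25.4, 48.7, 95.5 and 47.0, and its log2 ratio at day 3 was -1.37. Its 2 main first exons begin at the same base and differ at their splice end, and the longer one had 28.5, 30.9 and 41.9 FPKM in control and at days 1 and 14 but 0.0113, 0.00825 and 0.00817 at days 3, 7 and 28. The shorter one had 35.6 in control and 24.1, 41.2 and 46.6 on those 3 days. The gene's value was thus low where the longer exon was near 0. Ndufa12, an accessory subunit of the matrix arm, had 77.3 FPKM in control, then 79.5, 39.7, 41.8, 81.2 and 53.2, with log2 ratios of -0.96 and -0.89 at days 3 and 7. By its ends it had 77.3 in control, then 39.6, 39.7, 31.9, 36.5 and 53.2, so that it was low at days 1 and 14 as well. At day 1 the highest log2 ratios of the complex were 0.65 for Ndufb2 and 0.41 for Ndufv2, and the lowest after Ndufa13 was -0.22 for Ndufa7.

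**Figure D4:**
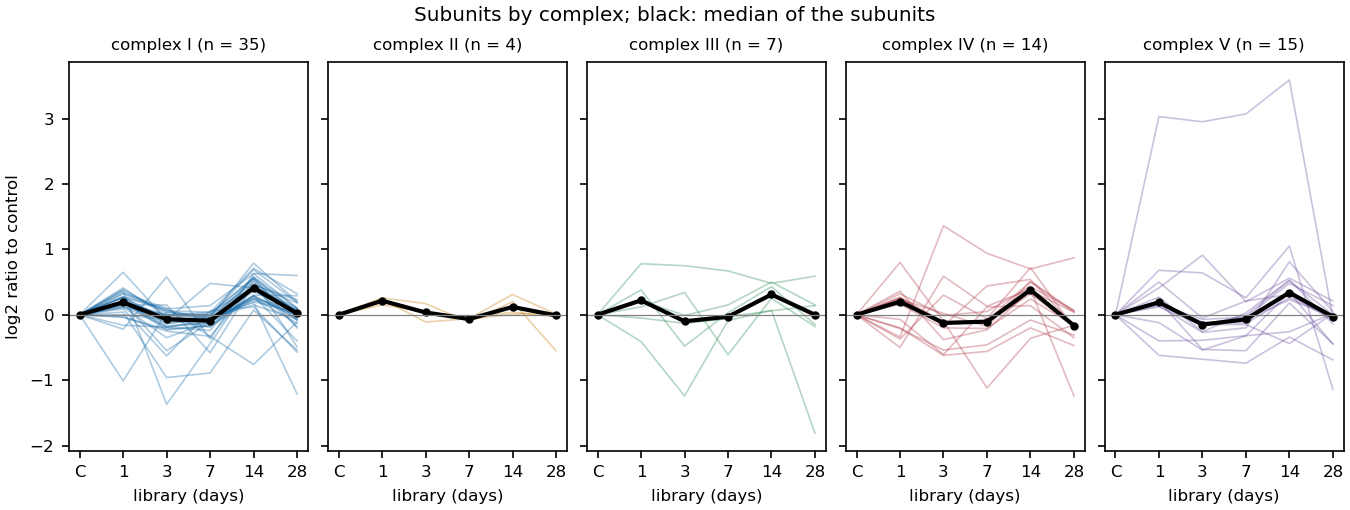
Log2 ratio to control (y axis) of each listed subunit (thin coloured lines) and the median of the complex (black line and points) in the 6 libraries (x axis; C, control; numbers, days after stroke), one panel per complex. The median of each complex is above 0 at days 1 and 14, and the single line far above the rest in complex V is Atp5e.

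Complex II, succinate dehydrogenase, is encoded by 4 nuclear genes, all listed, and 3 of them differed little between libraries. Sdha, the flavoprotein, had 98.1 FPKM in control, then 109, 102, 93.2, 98.8 and 99.8. Sdhb, the iron-sulphur subunit, had 87.3, 103, 80.8, 83.8, 108 and 87.6 in the same order. The membrane anchor Sdhd ran only from 44.9 to 52.9. Sdha, Sdhb and Sdhd varied by at most 1.34 times between the lowest and the highest library. Sdhc, the other anchor, varied by 1.76 times, with 17.4 in control, 20.9 at day 1 and 11.9 at day 28. Over all 4 genes the complex had median log2 ratios of 0.21, 0.04, -0.07, 0.12 and -0.01 over the 5 days. At day 14 it was the lowest of the 5 complexes. None of its transcripts is as short as 1000 nt, and a part of length in its level was not tested.

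Complex III, cytochrome bc1, had 7 of 8 genes listed, with median log2 ratios of 0.22, -0.10, -0.03, 0.31 and 0.00. The core proteins differed little: Uqcrc1 ran from 45.3 FPKM at day 3 to 61.5 at day 14, and Uqcrc2 from 71.5 at day 3 to 91.0 at day 1. Uqcrh, the acidic hinge protein that contacts cytochrome c1, was the most abundant, with 181 FPKM in control, then 211, 179, 201, 255 and 201. Uqcr11 was the member of the complex that stood above control throughout, with 96.8 FPKM in control against 166, 163, 154, 135 and 145 at days 1, 3, 7, 14 and 28. Its log2 ratios ran from 0.48 to 0.78. Uqcrq, which binds ubiquinone with cytochrome b, was listed at low levels for a subunit every cell needs, with 5.28 FPKM in control, then 3.97, 2.18, 4.97, 5.56 and 1.43. Its log2 ratios of -1.24 at day 3 and -1.81 at day 28 rest on these low values.

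Complex IV, cytochrome c oxidase, had 14 of its 19 nuclear genes listed, with median log2 ratios of 0.20, -0.12, -0.11, 0.38 and -0.16. Cox5a, which with Cox4i1 forms the first nuclear-encoded part of the assembly, had 150.0 FPKM in control, then 178, 136, 138, 187 and 133. Cox5b, the zinc-binding subunit, had 114, 197, 106, 52.2, 88.3 and 102 in the same order. Its log2 ratio was 0.80 at day 1 and -1.12 at day 7, so that it was the member of the complex with the widest course among the abundant ones. The end listed for Cox5b held under 1 FPKM in every library, and by that end the day 7 ratio was 1.77, of the opposite sign. Ndufa4, once counted with complex I and now placed in complex IV, was below control in every library after stroke, with 306 FPKM in control against 267, 199, 207, 267 and 222. Its log2 ratio was lowest at day 3, at -0.62. Cox7b had 128 FPKM in control, then 111, 88.3, 93.3, 121 and 104, but its control value rests on an event outside the annotated span of the gene. By events inside the span it had 13.4 in control and the same values after stroke, so that its direction turned, and no direction is given for it. At day 14 the highest log2 ratios among genes with at least 5 FPKM in the control were 0.54 for Cox6a1 and 0.51 for Cox7a2, and the lowest were -0.36 for Cox5b and -0.20 for Ndufa4.

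The isoform families of the complex kept their order in all 6 libraries. The ubiquitous Cox6a1 had 205 to 337 FPKM and the heart and skeletal muscle form Cox6a2 had 5.28 to 8.94. Cox7a2 had 113 to 174 and the muscle form Cox7a1 had 5.17 to 8.77. Cox6b1 had 198 to 318, and the testis form Cox6b2 had 1.02 to 3.54, with 1.32 in the control and 3.54 at day 3 (log2 ratio 1.36). The muscle or testis form was thus the minor one in each family. Cox4i2, a form known for its response to low oxygen, had 1.27 FPKM in control, then 0.954, 1.58, 1.21, 2.14 and 1.09. Ndufa4l2, a gene induced through HIF-1 under hypoxia, had 1.41, 0.969, 2.17, 1.56, 1.88 and 0.541 in the same order. These levels are near 1 FPKM and give no firm order of the libraries, and the log2 ratio of -1.24 for Ndufa4l2 at day 28 rests on such values. Skeletal muscle markers, which would mark muscle taken along with the tissue, summed to at most 2.59 FPKM over the listed genes of a list of 10.

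Complex V, the ATP synthase, had 15 of 17 identifiers listed, with median log2 ratios of 0.19, -0.15, -0.07, 0.34 and -0.03. Atp5b, the catalytic beta subunit, was the most abundant member in every library, with 506 FPKM in control, then 575, 469, 461, 605 and 495. Atp5a1, the alpha subunit of the same ring, had 269 FPKM in control, then 312, 242, 243, 198 and 273. Alpha and beta went the same way until day 7 and apart at day 14, where beta had a log2 ratio of 0.26 and alpha of -0.44. Their principal transcripts measure 1916 and 2471 nt. Atp5c1, the gamma subunit that turns inside the ring, had 109 FPKM in control, then 82.1, 82.8, 86.9, 90.9 and 110.1, from its summed starts. By summed ends it had 68.0 in control, then 73.9, 69.6, 70.9, 90.6 and 108, above control on each day, so that its direction depended on the end of the transcript that was read. Atp5d, the delta subunit, had 101 FPKM in control by its end, against 65.7, 63.3, 60.4, 80.2 and 62.6, while its listed starts summed to 1.99 in control and to 57.0 or more on each day after stroke. The 10 listed stalk and membrane subunits were all above control at day 14, with a median of 0.50 (by starts 9 of 9, with 0.51, and by ends 10 of 10, with 0.50). For the 5 subunits of the F1 head the median was -0.26, with 3 below control, but it was 0.26 by starts and 0.04 over the 4 compared by ends, so that no direction held for the head. Atp5g3, a source of the membrane c-ring that protons turn, had 162 FPKM in control, then 179, 135, 141, 285 and 168, and a log2 ratio of 0.81 at day 14. Atp5g1, which encodes the same mature c-ring protein, had 77.9 in control and 98.3 at day 14. The third c-ring gene was not listed: its span was entered under a microRNA gene, Mir688, with 12.9 to 29.3 FPKM.

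Atp5e, the epsilon subunit of the F1 head, differed most of all members. It had 14.8 FPKM in control and 14.3 at day 28, against 122, 115, 125 and 179.5 in the libraries between them. Control and day 28 were thus alike, and the other 4 libraries lay at about the level of its neighbours in the complex. The log2 ratios were 3.03, 2.95, 3.07, 3.59 and -0.05. The gene has 1 listed start and 1 listed end, with the same value in every library, and its principal transcript of 421 nt is among the shortest of all members. The other F1 subunits, which stand in fixed proportion to it in the assembled enzyme, had log2 ratios between -0.74 and 0.26 from day 1 to day 14. By summed starts alone, Atp5d was also far lower in the control than on each day after stroke. Unlike Atp5e it was not low at day 28, when its second start had 57.2 FPKM. By its end Atp5d was highest in the control, at 101 FPKM. Whether the low values are of the RNA or of the FPKM estimate was not tested.

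Atp5j, coupling factor 6 of the stalk, had 65.0 FPKM in control, then 104, 101, 77.7, 135 and 29.4, with log2 ratios of 1.05 at day 14 and -1.14 at day 28. Its main start had 32.0 FPKM in control and 41.5, 41.1, 34.6, 46.0 and 25.4 after stroke. A second start inside the gene had 0.608 in control and 0.882 at day 28, against 48.4, 20.7, 32.7 and 46.5 at days 1, 3, 7 and 14. By summed starts alone the log2 ratio at day 28 was -0.31. The second start of Atp5j and the whole of Atp5e were therefore low in the same 2 libraries. Atp5d showed a change of start of another kind. Its upstream start had 1.99 FPKM in control, then 58.1, 1.90, 24.7, 75.2 and 1.35, and a second start had 57.2, 32.4, 0.0431 and 57.2 from day 3 to day 28 and was not listed in the other libraries. The end of the gene ran only from 60.4 to 101 over the same libraries. Over the subunits listed with both starts and ends, 4 to 7 of 63 or 64 differed by more than 0.5 between the log2 ratio from starts and that from ends, depending on the day.

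**Figure D5:**
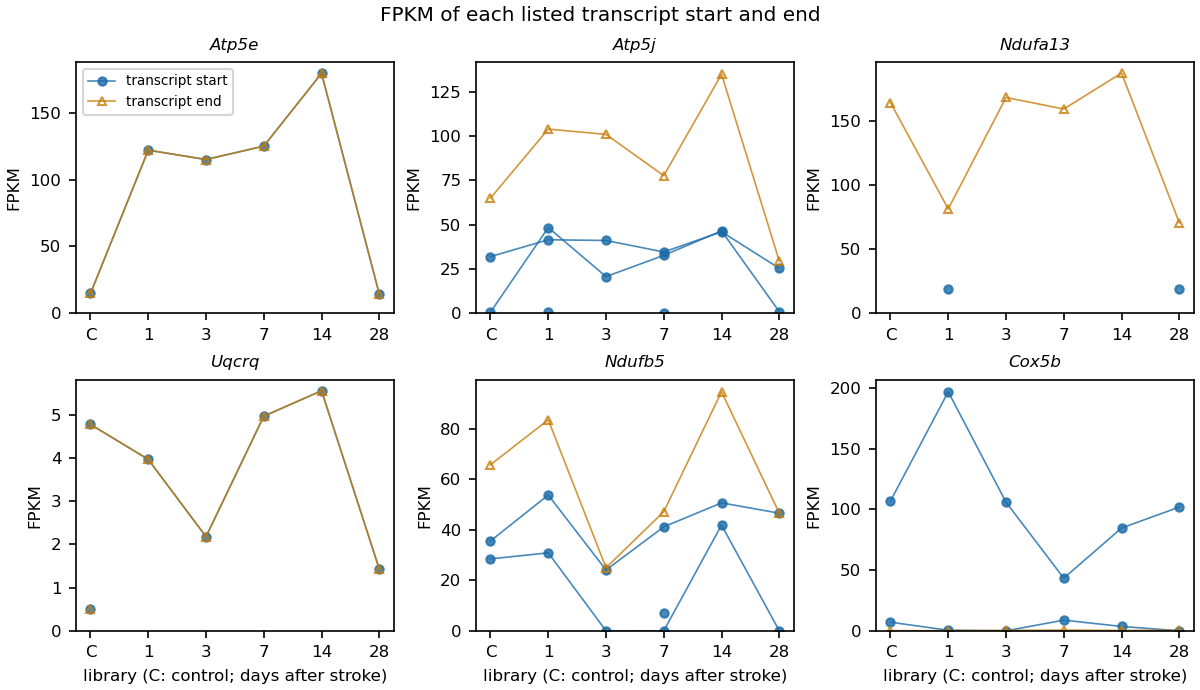
FPKM (y axis, from 0) of each listed transcript start (blue circles) and end (orange triangles) in the 6 libraries (x axis; C, control; numbers, days after stroke) for 6 subunit genes with a log2 ratio past 1 in size on some day. Start and end of Atp5e coincide, at 14.8 in control and 14.3 at day 28 and at 115 or more between, and the second start of Atp5j is under 1 in the same 2 libraries.

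Most of the factors were less abundant than most subunits. The 11 listed assembly factors had median log2 ratios of 0.06, -0.09, -0.04, 0.16 and -0.08. Ndufaf5, a methylase or hydroxylase for the complex I arm that holds Ndufs7, was the factor past a log2 ratio of 1 in size, with 7.69 FPKM in control, then 18.6, 9.69, 13.8, 9.85 and 16.5. Its log2 ratios were 1.26 at day 1 and 1.09 at day 28. Ndufaf6 varied more over the libraries, by 2.91 times, but from low values, with 3.62 FPKM in control, then 4.04, 2.91, 2.15, 6.24 and 3.19, and Ndufaf3 varied by 2.12 times. Cox7a2l, which joins complexes III and IV into supercomplexes, was among the most even members, with 107 FPKM in control and 104 to 123 after stroke. Sdhaf4 ran from 17.9 to 19.4. Atp5s, a factor related to the ATP synthase, had 4.06 FPKM in control and 2.47 at day 3.

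Other gene lists were set beside the subunits. The 13 subunits encoded in mitochondrial DNA had no value in any library under their own identifiers, so the nuclear and mitochondrial parts of the chain could not be compared. The 72 listed mitochondrial ribosomal proteins had medians of 0.12, -0.04, -0.07, 0.31 and -0.01, and the 13 tricarboxylic acid cycle enzymes 0.13, -0.12, -0.15, 0.14 and 0.02. The 14 glycolytic enzymes had 0.15, -0.09, -0.06, 0.24 and 0.00. Each of these lists was likewise highest at day 14 and next at day 1. Other assembly factors, 27 or 28 of 35 compared, had -0.01, -0.16, 0.00, 0.16 and -0.05. The 4 compared genes of electron carriers and the ATPase inhibitor had -0.05, 0.07, 0.05, 0.08 and 0.04. Day 1 was not the second highest in either of these. Cytosolic ribosomal proteins, many of them also small, stood higher, with 0.35, 0.16, 0.23 and 0.59 from day 1 to day 14. Their list holds 85 genes, of which 61 to 63 were compared, and ribosomal protein kinases, a binding protein and gene copies that share the prefix were left out of it after values were seen. Among 16 regulators of mitochondrial biogenesis the median was -0.06 at day 1, over the 15 compared. Over all 16 it was 0.12, 0.04, 0.19 and -0.01 at days 3, 7, 14 and 28. Ppargc1a, the coactivator PGC-1alpha, had 5.20 FPKM in control, then 4.52, 4.85, 4.43, 2.02 and 4.03. Its log2 ratio at day 14 was -1.32. Its relatives Ppargc1b and Pprc1 had 1.33 and 1.22, from 0.703 FPKM in control and 1.92 at day 14, and from 1.78 and 4.28. All 3 ratios rest on low values, and those near 1 FPKM give no firm order. Gabpb2, a partner of GABP, was the lowest of the list at day 14, with 1.84 FPKM in control and 0.116 at day 14. Tfam, which packs and transcribes mitochondrial DNA, had 6.25 to 6.49 FPKM in all 6 libraries.

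Markers of other cell types moved over the same days. The 12 neuron markers had median log2 ratios of 0.06, -0.31, -0.28, -0.15 and -0.14, and their summed level was 2835 FPKM in control, 2225 at day 3 and 2732 at day 28. Of the 10 microglia and macrophage markers, 8 could be compared, with medians of 0.51, 1.85, 2.50, 2.16 and 0.30, and the 8 or 9 listed ones summed to 163 FPKM in control and to 1090.2 at day 7. The neuron marker sum was 2862 FPKM at day 1, when the median subunit was above control, and 2486 at day 7, when it was below. At day 14, when the median subunit was highest, the sum was 2483, and 6 of the 12 neuron markers were above control. The part of either list in the subunits' values was not tested.

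Comparisons between successive libraries leave the control out. From day 1 to day 3 the median subunit was lower by a log2 ratio of -0.30, with 66 of 75 lower, and from day 3 to day 7 it moved by 0.02. From day 7 to day 14 it was higher by 0.44, with 70 of 75 higher, and from day 14 to day 28 it was at -0.38, with 67 of 75 lower. Protein-coding genes with a principal transcript of at most 1000 nt had -0.15, 0.07, 0.37 and -0.46 over the same 4 steps, and all genes had 0.03, 0.01, 0.03 and -0.07. The complexes shared the direction of the steps into day 3, into day 14 and out of it, with medians from day 7 to day 14 of 0.51 for complex I, 0.20 for complex II, 0.35 for complex III, 0.41 for complex IV and 0.50 for complex V. Of the 75 subunits, 54 had their highest value at day 14 and 12 at day 1, and 31 had their lowest at day 3 and 22 at day 7.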

How the data were processed

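RNA of the ipsilateral cortex was sequenced by the study as poly(A)-selected, strand-specific paired reads of 150 bases, at an average of 33.6 M reads as stated in the labels. Per the labels, mm10 was the build and Trimmomatic 0.30, HISAT2 2.0.1 and HTSeq 0.6.1 were among the tools, and the program behind the event tables is not given in the sources used here. The deposited values are FPKM for each transcript start, end and splicing event, from 81985 to 97289 distinct events in a library after exact repeats were removed. From 13263 to 13987 genes had a value in a library, and 92.4% to 92.6% of events lay inside the annotated span of their gene. FPKM keep no read counts, so the counting precision of a value is unknown. Gene values were built as described above, with GENCODE M21 for symbols and transcript lengths. Ratios used a pseudocount of 0.1 and a minimum of 1 FPKM in 1 of the 2 libraries, with a threshold of 1 on the log2 scale.

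The members and gene lists were chosen with earlier results of these data known. Genes were named by a rule: the core subunits, the isoform families, the 2 highest and 2 lowest log2 ratios of each complex at days 1 and 14 among genes with at least 5 FPKM in control, members past the threshold on any day, and unlisted members. Other lists have up to 4 examples, from both ends at day 14. Cox6c, Ndufab1, Ndufaf3, Ndufaf6, Sdhaf4, Atp5s and Tfam, and Ndufs5 and Atp5h for their promoters, were named after their values were seen. The values of 1 listed member are not reported here by themselves. With 1 pooled library a group, no test was made. The gene-value and length-correction steps were tested on simulated data. Each simulated transcript had a start and an end that both held its full level. Genes that lack one of these, such as Ndufa13 in the control, were therefore not covered. Python 3.11.15, pandas 2.3.3, numpy 2.4.6 and matplotlib 3.10.9 were used.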

Additional observations from a re-analysis of the deposited data

Results flagged for a closer look

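Between libraries, the median log2 ratio of the subunits to control was below 0 at day 3 and above 0 at days 1 and 14. The medians of day 14 and day 3 differed by 0.47 and those of day 1 and day 3 by 0.29. Each day is 1 pooled library, both differences use the same control, and neither was tested.

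Events on the mitochondrial chromosome, which enter no comparison of the report, numbered 5 in the day 14 library, 1 in that of day 7 and 7 in that of day 28, and 0 were listed in the control or on days 1 and 3. The highest reached 1318 FPKM in the day 14 library, against 36.8 and 6.65 in the others. None of them carried the identifier of any of the 13 mitochondrial genes that encode subunits of the chain. Whether any lay within these genes under another identifier is not given here.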

How the results depend on the processing

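The alternatives were another pseudocount (1 or 0.01), no filter or at least 5 FPKM, genes not listed taken as 0, starts alone, ends alone, events inside the gene's span, centring on the median of all genes, rescaling to the same sum, and correction for the longest transcript. Correction for the principal transcript, and backgrounds of short principal transcripts and of genes with at least 20 FPKM in the control, were chosen after seeing the data. Of 60 alternative medians of the subunits, 54 lay within 0.1 of the reported one on the log2 scale. At day 1 the median was 0.05 after correction for the longest transcript and 0.04 after that for the principal one. At day 14 it was 0.26 centred, 0.18 rescaled, and 0.02 and -0.00 after the corrections, which subtract the trend with length.

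Counts of members past the threshold stayed within 1.5 times in 113 of 140 alternatives. With a log2 ratio of 0.5 as the threshold, 7, 7, 4, 23 and 4 members were higher over the 5 days and 2, 13, 9, 1 and 8 lower. These are of 88 members compared, or 87 at day 28. All genes compared numbered 11545, 11810, 11830, 11557 and 11583. Of them 1523, 2040, 1955, 2498 and 1207 were higher at this threshold, and 1488, 1006, 899, 1617 and 921 were lower. At the threshold of 1 with starts alone, 4 members were higher and 0 lower at day 1, 3 higher at day 7 and 2 at day 28. With ends alone 1 member was lower at day 14 and 2 higher at day 28. Events inside the span gave 2 higher at days 7 and 28. With pseudocount 1, 1 was higher and 1 lower at day 3, and with at least 5 FPKM 1 was higher then. Centring, rescaling and both corrections each left 1 higher at day 14. Among subunits only, 1 was higher at day 1 and 0 at day 28. Among protein-coding genes with a longest transcript of at most 1000 nt, 17.5% were higher at day 14, beside 7.69% of all genes. The cause of these shifts was not tested. No paired analysis was possible because each group has 1 library.

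One pooled library a group leaves the spread between mice unknown, and FPKM without counts leaves the precision of single values unknown. Values near 1 FPKM, and genes that are not listed, cannot be ranked against control. Reads shared with pseudogenes could not be separated.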
